A study of Mus musculus with 5 samples.

Results

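Infiltrating monocyte and pan-myeloid genes were read in bulk RNA sequencing of tumor-bearing brain. They are 9 of the 55573 genes in the count tables, and each symbol was found once. The genes were chosen by name with a rule that uses no measured value, but with earlier results of these data known. Shares among the 9 are therefore descriptive. Ly6c1, Ly6c2, Plac8 and F10 were read as monocyte genes, and Adgre1, Cd14, Cybb, Aif1 and Ptprc as genes of the wider myeloid or leukocyte compartment. All 9 passed the filter on low counts. C57BL/6 female mice had received GL261 glioma cells carrying a luciferase/mKate2 vector in the right caudate nucleus-putamen at 7 to 8 weeks of age, and were entered into the study only with a bioluminescence signal above a set cutoff. The vehicle group (3 libraries) was given dilution buffer. The UMBO group (2 libraries) was given ultrasound-mediated blood-brain barrier opening, in which pulsed ultrasound is applied to the head while microbubbles circulate. Sessions took place on days 21 and 24, and the right hemisphere was taken 24 h after the last one. Any further UMBO mouse of the study was not analysed here. Whether the vehicle mice also received microbubbles, and whether the mice were perfused, is not given in the sources used here. The model rests on 1 transplanted cell line in hosts with an intact immune system, and a hemisphere holds tumor cells, brain cells, leukocytes and any blood left in the vessels.

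Classical monocytes leave the bone marrow, circulate with high surface Ly6C and enter inflamed or tumor-bearing brain, where they can become macrophages. Microglia are the resident macrophages of the brain and are not normally replaced from the blood, but they share genes such as Aif1, Adgre1, Cybb and Ptprc with incoming cells. The Ly6C antigen is the product of a pair of neighboring genes, and one of them, Ly6c1, is also made by brain endothelial cells. In bulk RNA, more cells of a type and more RNA per cell cannot be told apart.

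Total counts lay between 59736771 and 86164159 per library, so counting error was small for all but the rarest genes. UMBO replicate 2 stood apart from the other libraries. It lay at 134 on the largest component of variation (78.7% of the variance), with the other 4 libraries between -68.4 and 17.02. The 8 neuronal marker genes summed to 2736 CPM (reads scaled to a common library size) in UMBO replicate 2 and to between 5281 and 8081 CPM in the others, which marked every library as brain. The 10 proliferation genes summed to 484 CPM in UMBO replicate 2, 115 in UMBO replicate 1, 110 in vehicle replicate 2 and 49.8 and 35.7 in vehicle replicates 1 and 3. The fold change of each of the 9 genes is therefore also given without UMBO replicate 2. Means are given ± SD over the 3 vehicle and the 2 UMBO libraries.

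The sequences of Ly6c1 and Ly6c2 show how far reads can be assigned to 1 of the pair. Both lie on the reverse strand of chromosome 15 of GRCm38, Ly6c1 at 75044018 to 75048830 and Ly6c2 at 75108158 to 75111970. From the coding parts of their longest protein-coding transcripts, 393 bases each without the stop codon, bases 1 to 300 are printed, with the 7 bases that differ between the genes there in capitals.
Ly6c1 coding sequence: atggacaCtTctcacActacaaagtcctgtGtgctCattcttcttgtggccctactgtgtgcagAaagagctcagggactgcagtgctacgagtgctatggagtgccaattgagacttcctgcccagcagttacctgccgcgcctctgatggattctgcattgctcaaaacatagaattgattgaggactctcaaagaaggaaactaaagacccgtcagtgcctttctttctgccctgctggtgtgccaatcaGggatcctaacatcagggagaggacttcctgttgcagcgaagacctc
Ly6c2 coding sequence: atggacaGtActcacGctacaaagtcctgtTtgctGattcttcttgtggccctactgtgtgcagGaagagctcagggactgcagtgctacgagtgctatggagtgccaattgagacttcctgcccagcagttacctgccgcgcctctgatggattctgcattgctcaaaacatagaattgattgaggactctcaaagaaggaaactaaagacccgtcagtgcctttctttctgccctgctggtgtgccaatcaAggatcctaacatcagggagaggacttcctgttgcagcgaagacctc
The whole coding sequences were identical at 384 of 393 bases (97.7%), with no gap and 9 differing bases. The longest identical run was 188 bases. Of the 1756 different 100-base windows in the annotated Ly6c1 transcripts, 159 (9.05%) also occurred in a Ly6c2 transcript and 19 in a transcript of the neighboring gene Ly6a. For Ly6c2 the share was 159 of 2737 windows (5.81%). A read that falls within such a window carries no base that names its gene, so the split of reads between Ly6c1 and Ly6c2 is uncertain. These shares cover all annotated transcripts, whereas the longest protein-coding transcripts have only 844 and 822 bases. The share of reads concerned can therefore differ from them and was not measured. None of the 100-base windows of the other 7 genes occurred in transcripts of another gene, and no exon of the 9 genes overlapped an exon of another gene on either strand in GENCODE M21.

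Promoter sequence is shown because PU.1 is a known regulator of monocyte and macrophage genes. RefSeq promoter windows of GRCm38.p6, from 250 bases before to 50 after a transcript start, were found for 7 of the 9 genes (11 windows). The core motif of the myeloid factor PU.1 and its ETS relatives, GAGGAA on either strand, was present in a window of 6 of these 7 genes and absent from that of F10, where 28.3% of all 32851 windows hold it. The C/EBP motif TTGCNNAA was found in 1 of the 7 genes, Plac8 (10.8% of all windows), and the interferon regulatory factor motif, GAAA repeated after any 2 bases, in 2, Cybb and Aif1 (3.44% of all windows). A gene with several windows was counted if any of them held a match. The shares over all windows count each window singly, so the counts of genes are not directly comparable with them. The windows of Cybb and Aif1, whose levels followed each other closely, and the first windows of Ly6c1 and Ly6c2 are printed 5′ to 3′ on the strand of the gene, with GAGGAA or its reverse complement TTCCTC in capitals. No match overlapped another within a window.
Ly6c1, chr15:75048788-75049087, reverse strand: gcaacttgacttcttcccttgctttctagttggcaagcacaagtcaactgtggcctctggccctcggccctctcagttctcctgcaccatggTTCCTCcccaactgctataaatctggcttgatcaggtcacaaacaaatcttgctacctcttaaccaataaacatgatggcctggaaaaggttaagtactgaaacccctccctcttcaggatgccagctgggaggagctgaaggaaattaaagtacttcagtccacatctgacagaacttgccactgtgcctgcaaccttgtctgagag
Ly6c2, chr15:75111922-75112221, reverse strand: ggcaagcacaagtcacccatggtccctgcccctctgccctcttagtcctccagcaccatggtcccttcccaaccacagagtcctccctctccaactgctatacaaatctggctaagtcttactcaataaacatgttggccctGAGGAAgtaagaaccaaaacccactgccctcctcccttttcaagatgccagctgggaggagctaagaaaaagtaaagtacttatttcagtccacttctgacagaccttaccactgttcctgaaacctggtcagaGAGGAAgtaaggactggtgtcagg
Cybb, chrX:9469275-9469574, reverse strand: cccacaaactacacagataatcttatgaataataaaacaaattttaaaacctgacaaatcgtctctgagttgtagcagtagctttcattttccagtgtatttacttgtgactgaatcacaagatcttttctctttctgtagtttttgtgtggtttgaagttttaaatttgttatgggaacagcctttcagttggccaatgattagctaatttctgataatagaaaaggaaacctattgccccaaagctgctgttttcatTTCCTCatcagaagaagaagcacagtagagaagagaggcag
Aif1, chr17:35176003-35176302, reverse strand: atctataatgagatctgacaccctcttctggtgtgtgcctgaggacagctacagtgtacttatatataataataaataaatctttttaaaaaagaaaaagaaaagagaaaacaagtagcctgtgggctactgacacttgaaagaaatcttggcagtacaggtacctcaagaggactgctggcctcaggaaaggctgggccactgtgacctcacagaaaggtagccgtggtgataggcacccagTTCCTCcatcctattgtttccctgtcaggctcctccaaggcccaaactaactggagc
In Cybb and Aif1 the motif lay close to the start, beginning at bases 260 and 244 of the window. Aligned over their full length, the first windows of Ly6c1 and Ly6c2 were identical at 62.3% of 334 positions, with 68 gap positions counted as differences. The windows are offset, so many of the gaps lie at their ends. In these windows the motif began at base 93 in Ly6c1 and at bases 143 and 277 in Ly6c2. The first Ly6c1 window ends within the counterpart of the match at base 277, which began at base 124 of the second Ly6c1 window. A match is a description of the letters and not evidence of binding.

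The mean level was higher with UMBO than with vehicle for 9 of the 9 genes, where 50.9% of all genes had a fold change in that direction, but no gene passed the test. The 9 log2 fold changes lay between 0.83 (Ptprc) and 3.22 (F10), with a median of 1.69 where the median over all 23592 genes tested was 0.01. The adjusted p of each of the 9 was 0.497 in edgeR's quasi-likelihood test with Benjamini-Hochberg adjustment over all genes, and the same test called 0 genes in total (0% higher and 0% lower). At an unadjusted p under 0.05, edgeR called 3 of the 9 (Cd14, Adgre1 and Ly6c1), all higher, where 5.30% of all genes were called higher and 2.06% lower. The DESeq2 Wald test called 0 of the 9 after adjustment, where 40 genes were called in all (0.0668% higher and 0.0322% lower of 40435), and 7 of the 9 at an unadjusted p under 0.05, where 4.87% of all genes were called higher and 1.90% lower. With 3 libraries against 2 there are 10 groupings, and an exact permutation test of a single gene cannot go below p = 0.1.

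The libraries kept nearly the same order in every gene. UMBO replicate 2 was the highest library for 9 of the 9, as it was for 40.4% of all genes. UMBO replicate 1 lay within the range of the vehicle libraries for 7 of the 9, as for 63.4% of all genes. In these 7 genes the order from low to high was vehicle replicate 1, vehicle replicate 3, UMBO replicate 1, vehicle replicate 2 and UMBO replicate 2, an order found in 8.24% of all genes. In Adgre1 and Cd14 UMBO replicate 1 lay above vehicle replicate 2, so that these 2 of 9 showed no overlap, with each UMBO library above the 3 vehicle libraries, as did 11.5% of all genes. Without vehicle replicate 2 both UMBO libraries were above the remaining vehicle libraries in 9 of the 9, against 30.1% of all genes. Without UMBO replicate 1 the other UMBO library was above every vehicle library in 9 of the 9, against 42.2% of all genes. In a fit that assumes the lone UMBO library to vary like the vehicle libraries, 7 of the 9 then passed the adjusted edgeR test (all but Adgre1 and Ptprc), where 10.1% of all genes were called higher and 8.21% lower.

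**Figure D1:**
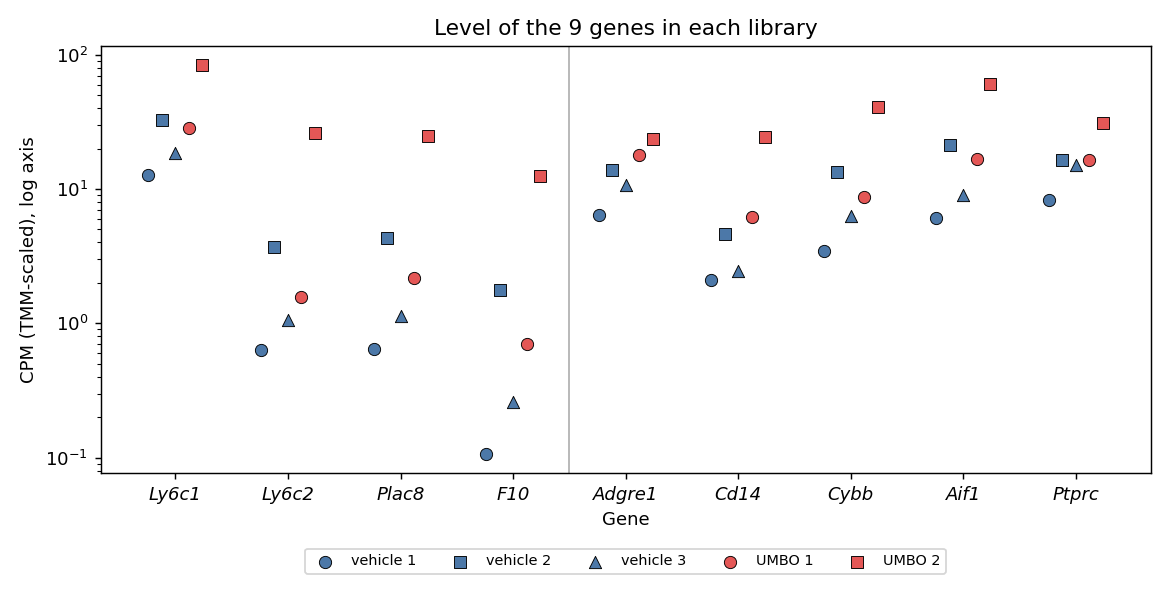
Level of the 9 genes in each library, in CPM after TMM scaling on a log axis, with vehicle libraries in blue and UMBO libraries in red and one point per library (no error bar). UMBO replicate 2 is the highest point for every gene, from 12.6 CPM for F10 to 83.5 CPM for Ly6c1, while UMBO replicate 1 lies among the blue points for all but Adgre1 and Cd14.

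Among the monocyte genes, Ly6c2, which carries the Ly6C antigen on classical monocytes, was at 0.629, 3.68 and 1.06 CPM in vehicle replicates 1 to 3 and at 1.58 and 26.0 CPM in UMBO replicates 1 and 2. UMBO replicate 2 was 7.07 times as high as the highest vehicle library, and UMBO replicate 1 was 0.429 times that library. The log2 fold change was 2.95 (standard error 1.20, 95% interval -0.000652 to 5.90), with a 2-sided exact permutation p of 0.3. It was -0.18 without UMBO replicate 2 and 4.07 without vehicle replicate 2, so 1 library decided the direction.

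Plac8 (chromosome 5, 100553725 to 100572245, reverse strand), a small cysteine-rich protein of monocytes, plasmacytoid dendritic cells and some lymphocytes, followed Ly6c2 closely. Its levels were 0.642, 4.35 and 1.13 CPM in the vehicle libraries and 2.18 and 25.0 CPM in the UMBO libraries. Its log2 fold change was 2.74 (standard error 1.15), and 0.09 without UMBO replicate 2. Over the 5 libraries the log2 levels of Plac8 and Ly6c2, each relative to its own vehicle mean, differed by a root mean square of 0.183.

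F10 (chromosome 8, 13037308 to 13056676, forward strand) encodes coagulation factor X, which the liver secretes into plasma and which monocytes and macrophages also make. Per length of exon it had the lowest vehicle level of the 9, and it had the widest range between libraries. The counts were 8, 120 and 22 reads in the vehicle libraries and 60 and 824 reads in the UMBO libraries, or 0.107, 1.78 and 0.26 CPM against 0.702 and 12.6 CPM. The highest library was 118 times the lowest, where this ratio was 41.4 for Ly6c2, 39.0 for Plac8 and 3.67 for Adgre1. Its log2 fold change of 3.22 (standard error 1.46) was -0.02 without UMBO replicate 2 and 5.20 without vehicle replicate 2.

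Ly6c1 had the highest level of the 9 per length of exon and a narrower range between libraries than Ly6c2. Its levels were 12.8, 32.6 and 18.6 CPM with vehicle and 28.4 and 83.5 CPM with UMBO. With all libraries the log2 fold change was 1.39 (standard error 0.55), and 0.41 without UMBO replicate 2. When the counts of Ly6c1 and Ly6c2 were added into 1 feature the log2 fold change was 1.59.

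The balance within the pair differed between libraries. The ratio of Ly6c1 to Ly6c2 counts was 20.4, 8.85 and 17.5 with vehicle and 18.0 and 3.21 in UMBO replicates 1 and 2. It was lowest in the library with the most Ly6c2, and next lowest in the vehicle library with the most Ly6c2. Ly6c2 is the denominator and varied more between libraries than Ly6c1, so this order largely follows from the ratio itself. Relative to the summed CPM of 12 endothelial genes, Ly6c1 was at 0.0533, 0.101 and 0.0565 with vehicle and at 0.0696 and 0.202 in UMBO replicates 1 and 2. Those 12 endothelial genes themselves summed to 240, 323 and 329 CPM with vehicle and to 408 and 414 CPM with UMBO. Of the 12 there were 11 higher and 1 lower (median log2 fold change 0.64, and 0.53 without UMBO replicate 2), 7 without overlap and 6 with an unadjusted p under 0.05, against 11.5% and 5.30% of all genes, and 0 passed the adjusted edgeR test. The 2 with the most reads, Flt1 and Slco1a4, had log2 fold changes of 0.12 and -0.09, among the smallest of the list. How much of the Ly6c1 signal came from endothelium was not tested.

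**Figure D2:**
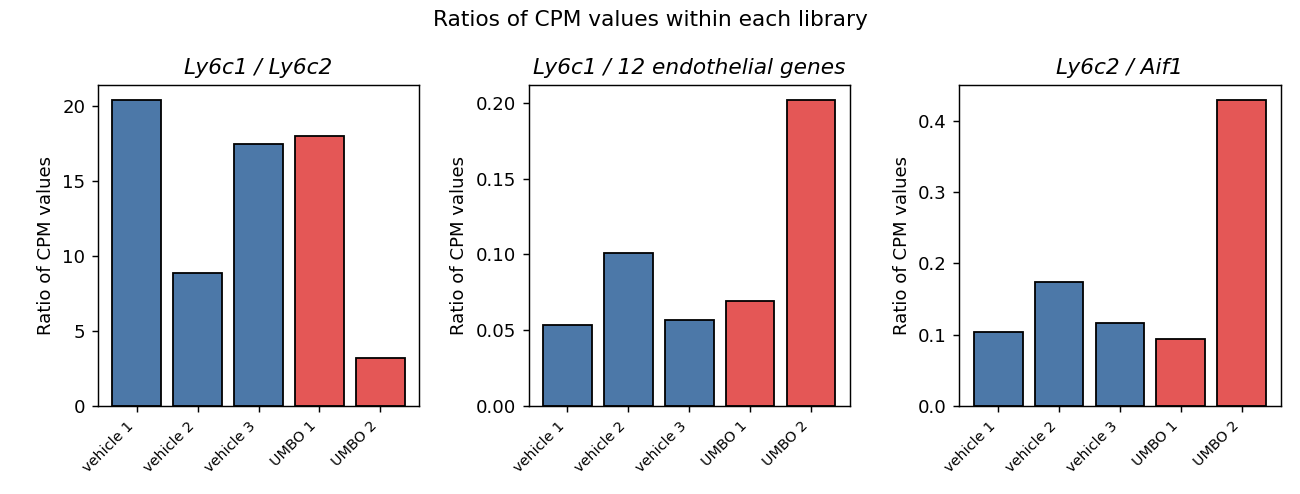
Ratios of CPM values within each library, on linear axes that start at 0, for Ly6c1 over Ly6c2, Ly6c1 over the sum of 12 endothelial genes and Ly6c2 over Aif1, with one bar per library. In UMBO replicate 2 the first ratio is the lowest of the 5 libraries (3.21) and the other two are the highest (0.202 and 0.429), whereas UMBO replicate 1 (18.0, 0.0696 and 0.0938) lies close to vehicle replicates 1 and 3.

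Further genes listed for classical monocytes were read next. Of 12 such genes 11 were higher and 1 lower with UMBO (median log2 fold change 1.56), and 0 passed the adjusted edgeR test. At an unadjusted p under 0.05 there were 4 higher and 0 lower, against 5.30% and 2.06% of all genes. Those with the most reads were Fn1, which encodes fibronectin, at 86.7 ± 20.6 (SD, n = 3) and 119 ± 14.1 CPM (SD, n = 2), and Lyz2, the lysozyme of myeloid cells. Lyz2 was at 13.7, 65.0 and 28.9 CPM with vehicle and 60.3 and 294 CPM with UMBO. Without UMBO replicate 2 the median of this list was 0.09.

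Genes of patrolling monocytes, which carry little Ly6C, were read beside them. Of 8 such genes 6 were higher and 2 lower with UMBO (median log2 fold change 0.64), and the 2 with the most reads were the 2 lower ones. Without UMBO replicate 2 the median was -0.16. Nr4a1, a nuclear receptor needed for these cells and also induced in neurons by activity, was at 75.6, 67.9 and 52.1 CPM with vehicle and 34.2 and 51.3 CPM with UMBO. Ace was at 42.0 ± 6.11 and 26.7 ± 9.58 CPM. Choroid plexus also expresses Ace, and 0 of the 8 passed the adjusted edgeR test.

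Neutrophils also carry Ly6C, and their own genes were near the floor. Ly6g, which defines them, had 0, 3, 0, 1 and 1 reads in vehicle replicates 1 to 3 and UMBO replicates 1 and 2. S100a9 reached at most 2.17 CPM, in UMBO replicate 2. The gene of the neutrophil list with the most reads, Csf3r, was at 12.3 ± 2.96 and 22.6 ± 2.14 CPM, and microglia express it too. All 7 tested neutrophil genes of 10 were higher with UMBO (median log2 fold change 1.05, and 0.31 without UMBO replicate 2), and 0 passed the adjusted edgeR test. Red blood cell genes, a measure of residual blood, summed to 72.0, 148 and 165 CPM with vehicle and to 182 and 217 CPM with UMBO. Both UMBO libraries held more of them than any vehicle library, and vehicle replicate 1 held the least of them and the least Ly6c2. Vehicle replicate 3 held more of them than vehicle replicate 2 but less Ly6c2 (1.06 against 3.68 CPM). The part of residual blood in the monocyte signal was not tested.

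The other genes of the Ly6 cluster were read beside the pair. Of 14 listed genes 7 were tested, 5 higher and 2 lower with UMBO (median log2 fold change 0.90, and -0.11 without UMBO replicate 2). Of these 0 passed the adjusted edgeR test and 0 had an unadjusted p under 0.05. Ly6e, the one with the most reads, was at 227 ± 83.8 CPM (SD, n = 3) and 423 ± 240 CPM (SD, n = 2). Lynx1, which encodes a neuronal modulator of nicotinic receptors, was at 342 ± 69.2 and 236 ± 114 CPM. Ly6l had 0 reads in every library, and Ly6m was not found by symbol in the tables.

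Adgre1 and Cd14 were the genes in which the groups did not overlap. Adgre1 (chromosome 17, 57358691 to 57483527, forward strand) encodes an adhesion receptor of macrophages and microglia. It was at 6.41, 13.8 and 10.7 CPM with vehicle and at 18.1 and 23.5 CPM with UMBO. The log2 fold change was 1.01 (standard error 0.346, 95% interval 0.16 to 1.86), with an unadjusted edgeR p of 0.0266. It was 0.81 without UMBO replicate 2, and its range of 0.76 to 1.31 over the fits that each left out 1 library was the narrowest of the 9.

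Cd14, a surface protein without a membrane span that hands lipopolysaccharide to the receptor TLR4, had the smallest p of the 9. It was at 2.10, 4.61 and 2.43 CPM with vehicle and at 6.18 and 24.4 CPM with UMBO. Its log2 fold change of 2.33 (standard error 0.634, 95% interval 0.77 to 3.88) had an unadjusted edgeR p of 0.0105 and ranked 150 among all genes tested. It was 1.02 without UMBO replicate 2. The 2-sided exact permutation p was 0.1 for Cd14, the smallest possible, 0.2 for Adgre1 and 0.3 for each of the other 7 genes.

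The partners of CD14 in sensing lipopolysaccharide were read next. Of 8 genes 7 were higher and 1 lower (median log2 fold change 0.80, and 0.28 without UMBO replicate 2), and 5 of the 8 had no overlap in that direction, where 11.5% of all genes did. None passed the adjusted edgeR test, and 2 had an unadjusted p under 0.05, all higher, where 5.30% of all genes were called higher. Myd88, the adapter of most Toll-like receptors, was at 7.80 ± 2.54 CPM (SD, n = 3) and 16.5 ± 11.3 CPM (SD, n = 2). Lbp, the plasma protein that loads lipopolysaccharide onto CD14, was at 8.96, 13.7 and 15.2 CPM with vehicle and 10.5 and 13.6 CPM with UMBO.

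Cybb (chromosome X, 9435252 to 9487771, reverse strand) encodes the catalytic subunit of the phagocyte NADPH oxidase. It was at 3.45, 13.4 and 6.31 CPM with vehicle and 8.69 and 41.1 CPM with UMBO. Its log2 fold change of 1.69 (standard error 0.772) was 0.17 without UMBO replicate 2. UMBO replicate 1 held less Cybb than vehicle replicate 2, by a ratio of 0.651.

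The list of other subunits of the oxidase held 5 genes. All 5 were higher with UMBO (median log2 fold change 1.51), and at an unadjusted p under 0.05 edgeR called 4, where 5.30% of all genes were called higher, while 0 passed after adjustment. Ncf1, an organizer subunit of the cytosol, was at 9.82, 22.5 and 13.5 CPM with vehicle and 26.4 and 46.3 CPM with UMBO, and its groups did not overlap. Cyba, the membrane partner of Cybb, was at 5.18, 19.1 and 7.00 CPM and at 14.7 and 71.4 CPM. Without UMBO replicate 2 the median of the subunits was 0.50.

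Aif1 (chromosome 17, 35170991 to 35176068, reverse strand) encodes Iba1, a calcium-binding protein of microglia and macrophages that is widely stained to show them. It was at 6.08, 21.2 and 9.07 CPM with vehicle and 16.8 and 60.7 CPM with UMBO. The log2 fold change was 1.68 (standard error 0.691), and 0.48 without UMBO replicate 2. Its pattern was close to that of Cybb, with a root mean square difference of 0.164 over the 5 libraries.

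The ratio of Ly6c2, read as a monocyte gene, to Aif1, read as a pan-myeloid gene, was taken in each library. It was 0.103, 0.174 and 0.117 with vehicle and 0.0938 and 0.429 in UMBO replicates 1 and 2. UMBO replicate 1 thus had the lowest ratio of the 5 libraries and UMBO replicate 2 the highest. For Plac8 over Aif1 the values were 0.105, 0.205 and 0.125 against 0.129 and 0.412. Cybb over Aif1 stayed between 0.516 and 0.695 in all 5 libraries. Which cells made the Ly6c2 and Plac8 RNA was not tested.

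Ptprc (chromosome 1, 138062861 to 138175708, reverse strand) encodes CD45, the tyrosine phosphatase on the surface of all nucleated blood cells and, at low density, of microglia. It had the smallest fold change of the 9. Its levels were 8.33, 16.5 and 15.2 CPM with vehicle and 16.4 and 30.9 CPM with UMBO. With all libraries the log2 fold change was 0.83 (standard error 0.393), and 0.30 without UMBO replicate 2. The ratio of Ptprc to Aif1 was lowest in UMBO replicate 2, at 0.51, and between 0.778 and 1.67 in the other libraries.

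CD45 acts on kinases of the Src family, and 10 genes of that pathway were read. Of these 8 were higher and 2 lower (median log2 fold change 0.79, and 0.13 without UMBO replicate 2). None of the 10 passed the adjusted edgeR test, and 3 had an unadjusted p under 0.05, all higher, where 5.30% of all genes were called higher. The genes of the list with the most reads, Jak1 and Fyn, are expressed across the brain and were at 164 ± 30.7 and 123 ± 8.55 CPM with vehicle (SD, n = 3) against 126 ± 49.7 and 149 ± 60.3 CPM with UMBO (SD, n = 2).

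**Figure D3:**
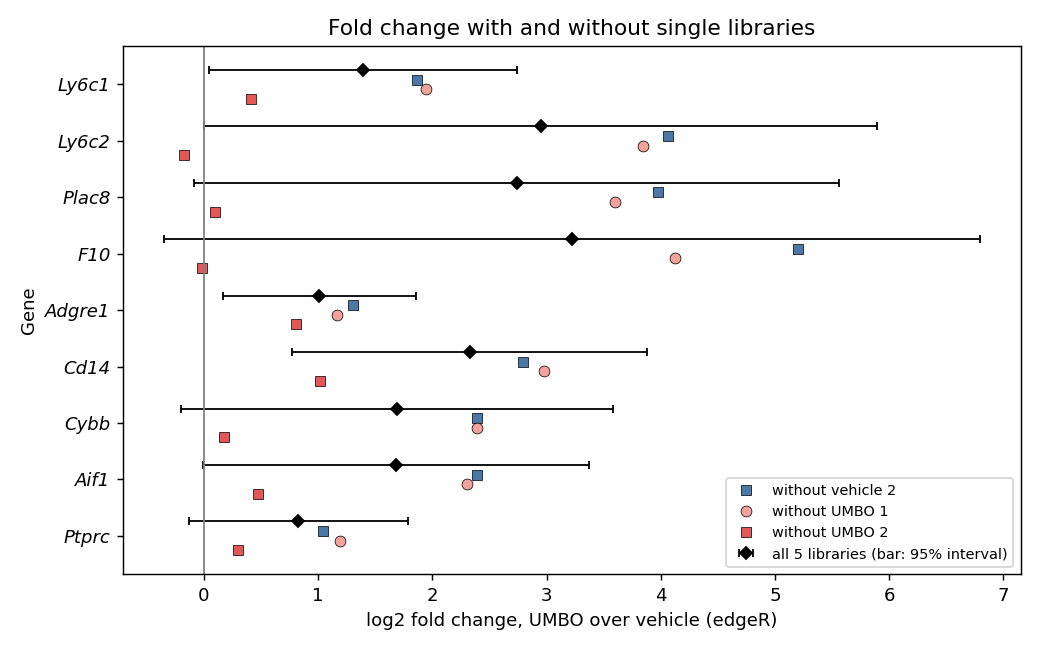
Log2 fold change of UMBO over vehicle for each gene from edgeR, with all 5 libraries (black diamonds with 95% intervals) and with vehicle replicate 2, UMBO replicate 1 or UMBO replicate 2 left out (colored points without intervals). Without UMBO replicate 2 the values lie between -0.18 and 1.02, with Adgre1 (0.81) and Cd14 (1.02) the farthest above 0.

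Coagulation genes were read beside F10. Of 15 genes 12 were tested, 10 higher and 2 lower with UMBO (median log2 fold change 0.39, and 0.14 without UMBO replicate 2), and 0 passed the adjusted edgeR test. F3, the tissue factor that starts the cascade and is made by astrocytes, was at 45.3 ± 7.40 CPM (SD, n = 3) and 59.8 ± 10.2 CPM (SD, n = 2). Pros1, the anticoagulant protein S, was at 21.7 ± 6.51 and 40.9 ± 10.7 CPM. F2, the prothrombin gene of the liver, had at most 9 reads in any library and did not pass the filter.

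Genes that define microglia served to read the resident share. Of 12 genes 9 were higher and 3 lower with UMBO (median log2 fold change 0.61, and 0.56 without UMBO replicate 2), and 9 had no overlap in that direction, where 11.5% of all genes did. The summed level was 466, 664 and 570 CPM with vehicle and 896 and 1014 CPM with UMBO. Csf1r, the receptor on which microglia depend for survival, was at 122 ± 21.2 CPM (SD, n = 3) and 182 ± 12.2 CPM (SD, n = 2). In the 2 UMBO libraries the median level of these genes was 0.58 and 0.44 above the vehicle mean on the log2 scale, while the medians of the 4 monocyte genes were 0.54 and 4.15. The part of the resident and incoming cells in Adgre1, Aif1, Cybb and Ptprc was not tested.

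Levels of the 9 genes were compared with each other per length of exon. In the vehicle libraries the order, as CPM per kb of exonic sequence (mean ± SD, n = 3), was Ly6c1 (12.7 ± 6.06), Aif1 (7.90 ± 5.21), Adgre1 (3.19 ± 1.15), Cd14 (1.76 ± 0.788), Cybb (1.33 ± 0.877), Plac8 (1.28 ± 1.26), Ptprc (0.728 ± 0.239), Ly6c2 (0.653 ± 0.602) and F10 (0.262 ± 0.339). The ranges of all neighbors in this order overlapped across the 3 libraries. Within each vehicle library, however, Ly6c1, Aif1, Adgre1, Cd14 and Cybb kept this order among themselves and F10 was lowest. The places of Plac8, Ptprc and Ly6c2 varied between the vehicle libraries. In UMBO replicate 2 the order was Ly6c1 (49.8), Aif1 (39.6), Plac8 (15.7), Cd14 (14.1), Ly6c2 (9.50), Adgre1 (7.26), Cybb (7.08), F10 (4.61) and Ptprc (1.69). The exonic lengths of Ly6c2 and Ptprc, 2740 and 18313 bases, are much longer than their longest protein-coding transcripts of 822 and 5074 bases. Per kb of those transcripts, an alternative chosen after the data had been examined, Ly6c1, Aif1 and Adgre1 still led and F10 was still last with vehicle, while Ptprc (2.63) and Ly6c2 (2.18) came next after Adgre1. In UMBO replicate 2 that scale put Ly6c2 (31.7) above Plac8 (20.4) and Cd14 (14.9), and F10 (5.03) below Ptprc (6.10), so the places of Ly6c2, Ptprc and F10 depend on the length used.

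For each gene the 2 other protein-coding genes with the most similar pattern were sought among 13200 genes, by the root mean square difference over the 5 libraries of log2 CPM relative to the vehicle mean. The measure covers 5 libraries that include the one that stood apart, and it is a description. Aif1 was matched most closely, by Fcgr1 (0.0479). Adgre1 was nearest to Fabp7 (0.0581) and Mpeg1 (0.0966), and Ly6c1 to Rhoh (0.0586) and Tnfrsf1b (0.0596). Cybb was nearest to Pirb (0.071) and Hk3 (0.113), and Ptprc to Mgp (0.0762) and Tmem176a (0.0931). Cd14 was nearest to Rrm2 (0.157), a gene of DNA synthesis, and S100a6 (0.176). Plac8 was nearest to the chemokine gene Ccl2 (0.157) and the granzyme gene Gzma (0.177), Ly6c2 to Gzma (0.207) and Lilr4b (0.294), and F10 to the galectin gene Lgals3 (0.338) and Ccl2 (0.479).

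**Figure D4:**
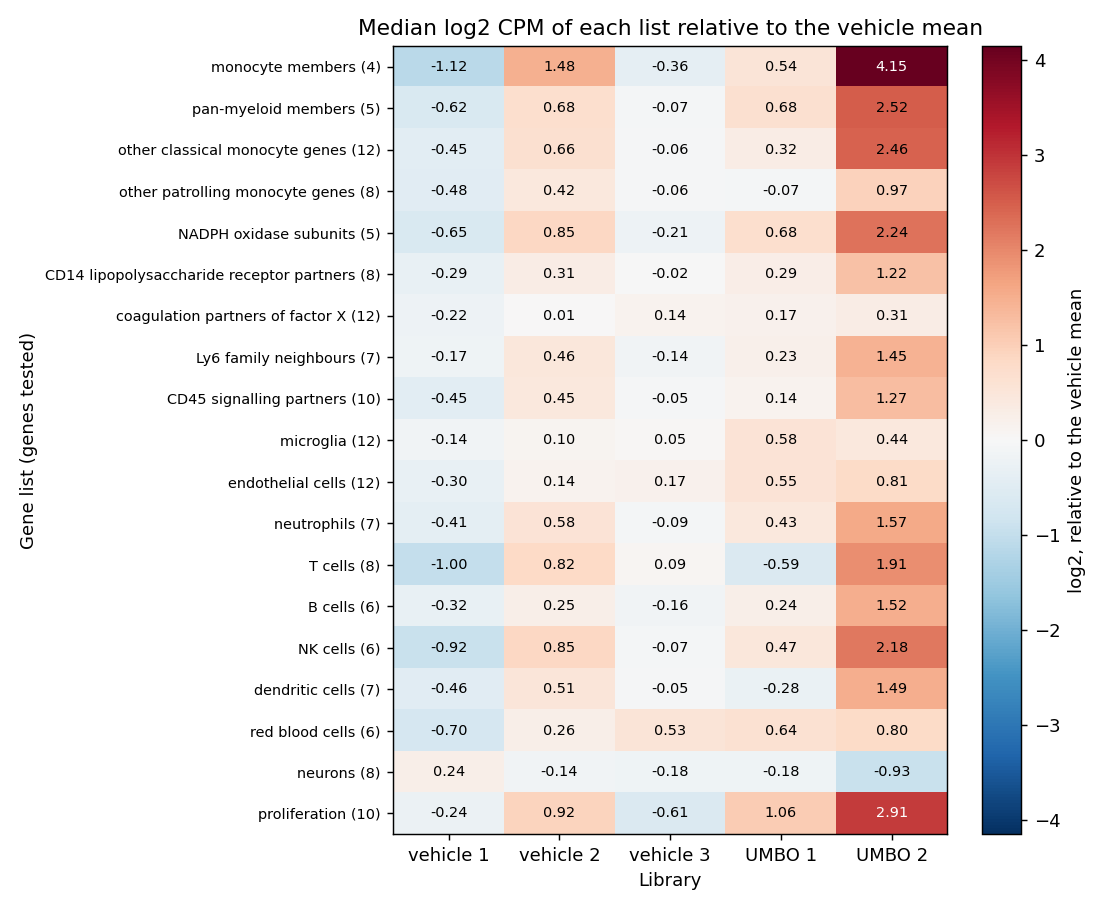
Median log2 CPM of each gene list relative to the vehicle mean, by library (columns) and list (rows, with the number of genes tested), with blue for lower and red for higher values and each value printed in its cell. The 4 monocyte genes have the highest value of the lists in UMBO replicate 2 (4.15) and are at 0.54 in UMBO replicate 1, below vehicle replicate 2 (1.48), while microglia genes are at similar values in both UMBO libraries (0.58 and 0.44).

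Proliferation genes were also highest in UMBO replicate 2. All 10 proliferation genes were higher with UMBO and each was under an unadjusted p of 0.05 in edgeR, where 5.30% of all genes were called higher, while 0 passed the adjusted test. Their median log2 fold change was 2.14, and 0.84 without UMBO replicate 2. Top2a was at 16.5, 38.1 and 9.91 CPM with vehicle and 38.2 and 175 CPM with UMBO. Mki67 was at 9.89 ± 3.95 CPM (SD, n = 3) and 36.0 ± 22.3 CPM (SD, n = 2). The summed list was lower in vehicle replicate 3 than in vehicle replicate 1, whereas each of the 9 genes was higher there. It was 115 CPM in UMBO replicate 1 and 110 CPM in vehicle replicate 2, whereas 7 of the 9 genes were lower in UMBO replicate 1 than in vehicle replicate 2. With the mean log2 CPM of these genes as a covariate the log2 fold changes were -1.33 for F10, -1.24 for Ly6c2, -0.98 for Plac8, -0.56 for Cybb, -0.27 for Aif1 and -0.15 for Ly6c1. They were 0.51 for Adgre1, 0.38 for Cd14 and 0.07 for Ptprc, and 0 of the 9 had an unadjusted p under 0.05 in that fit, where 2.51% of all genes were called higher and 2.87% lower. The covariate was highest in the 2 UMBO libraries, at 5.14 in UMBO replicate 2. UMBO replicate 1 (3.13) lay only just above vehicle replicate 2 (3.06). The part of the covariate and that of UMBO cannot be told apart.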

How the data were processed

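Hemisphere RNA of 5 mice (3 vehicle, 2 UMBO, as the labels group them) was analyzed, and any further UMBO mouse was not analysed here. Per the submitters' processing notes, STAR (v2.7.2a) and GRCm38 were used, and the deposited unit is the raw count per gene, unnormalized, with a separate table for each mouse. The annotation release and the use of strand in counting are not given in the sources used here. Symbols, positions and exonic lengths were taken from GENCODE M21, on the same build, and promoters from RefSeq (GRCm38.p6).

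Counts were scaled by TMM, filtered with filterByExpr and tested by the quasi-likelihood method of edgeR 4.0.16 (R 4.3.3), adjusted by Benjamini-Hochberg over 23592 genes at a threshold of 0.05. Standard errors were derived from the F statistic. Log2 CPM used a prior count of 2. DESeq2 1.42.0 was an alternative. The scripts were tested on simulated counts. Replicates are separate mice, and intervals of counts were not used because the spread between mice exceeds counting error.

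The members and lists were chosen with earlier results of these data known. Named genes were the 9 members, the 2 genes of highest mean CPM in each list, the 2 genes of nearest pattern for each member (protein-coding, mean log2 CPM of at least 1, no Gm or Rik symbol) and list genes at 0. Ly6g and F2 were named outside this rule, and 2 genes that it names are not reported here.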

Additional observations from a re-analysis of the deposited data

How the results depend on the processing

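The 9 genes were higher with UMBO, without passing the adjusted test, under scaling by DESeq2's method or by library size alone, no filter, a filter of 1 CPM in 2 libraries, the DESeq2 Wald test and each vehicle library left out. All 9 were also higher with a prior count of 0.5, which gives values with no test, and the summed Ly6c pair was higher without passing. Library size alone as the scaling shifted the median over all genes from 0.01 to 0.13. The direction turned in 6 genes with the proliferation covariate, at -0.15 for Ly6c1, -1.24 for Ly6c2, -0.98 for Plac8, -1.33 for F10, -0.56 for Cybb and -0.27 for Aif1, where the median of the 9 was -0.27. With 1 library left out the median of the 9 ranged from 0.30 to 2.39 (1.69 with all), the log2 fold change of Ly6c2 from -0.18 to 4.07 and that of F10 from -0.0168 to 5.20, both lowest without UMBO replicate 2, and the number of genes without overlap from 2 to 9 (9 without vehicle replicate 2 or UMBO replicate 1, where 30.1% and 42.2% of all genes had none, against 11.5% with all libraries). Without UMBO replicate 1, a fit that assumes the lone UMBO library to vary like the vehicle libraries, 7 of the 9 passed the adjusted edgeR test.

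Over all genes, those past an adjusted p of 0.05 numbered 0, against 40 with the DESeq2 Wald test, 2337 with the replicate block and 0 to 4543 with 1 library left out. At an unadjusted p under 0.05, 1251 genes were higher and 487 lower. The numbers were 2954 and 1146 with no filter (40435 genes tested), 1970 and 768 with the DESeq2 Wald test, 3396 and 2738 with the replicate block and 593 higher with the covariate. With 1 library left out they ranged from 194 to 5310 higher and from 102 to 4855 lower. The cause was not tested. With the replicate number as a block the adjusted p of the 9 genes lay between 0.000525 and 0.00975 in edgeR, where 6.05% of all genes were called higher and 3.85% lower. The labels tie no number to a common litter, batch or date, and vehicle and UMBO have just 2 numbers in common, so the mice were not treated as paired (correlations of deviations 0.453 and 0.76).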

Other observations

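Lymphocyte, NK and dendritic cell genes were read as further cell types. The 8 T cell genes had a median of -0.59 relative to the vehicle mean on the log2 scale in UMBO replicate 1 and of 1.91 in UMBO replicate 2, against -1.004, 0.82 and 0.09 in the vehicle libraries. Of the 8 there were 7 higher and 1 lower with UMBO (median log2 fold change 0.90, and -0.89 without UMBO replicate 2), and 0 passed the adjusted edgeR test. Trac, the constant part of the T cell receptor alpha chain, was at 1.11, 3.66 and 3.13 CPM with vehicle and at 2.12 and 6.31 CPM with UMBO. Cd4, the lower one, which macrophages and microglia can also express, was at 14.6, 14.0 and 7.31 CPM and at 4.56 and 8.31 CPM. The 7 dendritic cell genes had medians of -0.28 and 1.49 in the UMBO libraries, with 5 higher and 2 lower (median log2 fold change 0.74, and -0.36 without UMBO replicate 2) and 0 past the adjusted edgeR test. Flt3 and Zbtb46, which had the most reads and were the 2 lower ones, were at 12.7 ± 3.00 and 10.8 ± 1.37 CPM with vehicle (SD, n = 3) and at 8.11 ± 2.51 and 8.33 ± 2.90 CPM with UMBO (SD, n = 2).

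All 6 NK cell genes were higher with UMBO (median log2 fold change 1.41, and 0.26 without UMBO replicate 2), and 0 passed the adjusted edgeR test. Gzma, a granzyme of cytotoxic cells, was at 0.602, 4.35 and 1.48 CPM with vehicle and at 2.05 and 25.7 CPM with UMBO. Nkg7 was at 0.308, 1.80 and 0.886 CPM and at 0.772 and 3.97 CPM. Of 6 B cell genes 5 were higher and 1 lower (median log2 fold change 0.95, and -0.07 without UMBO replicate 2), and 0 passed the adjusted edgeR test. Blnk, which myeloid cells also express, had the most reads, at 8.06 ± 1.69 CPM (SD, n = 3) and 16.9 ± 7.56 CPM (SD, n = 2), and Pax5 was at 0.999 ± 1.10 and 0.786 ± 0.162 CPM. Among red blood cell genes Hbb-bs was at 47.5, 95.3 and 106 CPM with vehicle and 116 and 139 CPM with UMBO and Hba-a1 at 21.7 ± 7.60 (SD, n = 3) and 37.6 ± 6.26 CPM (SD, n = 2). The neuronal genes Snap25 and Syt1 had log2 fold changes of -0.82 and -0.90, with 7 of 8 neuronal genes lower and 0 past the adjusted edgeR test.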
